A study of Mus musculus with 12 samples.

Results

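The genes described here are 10 that act in adipogenesis, the making of fat cells, and in the uptake and storage of lipid. They were taken by name, with earlier results of these data known, out of 49315 genes counted in mouse adult fibroblasts (MAFs). The shares of all genes set beside their counts are thus a description. These are the nuclear receptor gene Pparg, the CCAAT/enhancer-binding protein (C/EBP) genes Cebpa, Cebpb and Cebpd, the lipid uptake genes Lpl, Angptl4, Cd36 and Fabp4, the lipid droplet gene Plin2 and the adipokine gene Adipoq. All 10 passed the filter on low counts in a fit of 17416 genes, although Adipoq did so only through its senescent libraries and is therefore given by its counts, with no test of senescence.

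The MAFs were primary cells that grew out of ear tissue of adult females, either C57BL6/J (WT) or Bmal1 -/- (KO), the latter without a transcription factor of the circadian clock. Senescent cells had received 20 Gy of X-rays and were then kept in culture for weeks. Control cells had received a sham irradiation. All cells were cultured in 3% oxygen, were synchronised with 100 nM dexamethasone, a glucocorticoid, and were collected 12 h later. Each state of each genotype was measured by RNA-seq in 3 libraries, which makes 4 groups. Nothing in the labels says that replicates came from separate mice or cultures, so the p-values measure the spread between these libraries, which may be technical. The counts of each genotype were in a table of their own, so that handling and genotype cannot be told apart in a comparison of KO with WT.

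In the textbook order of adipogenesis, a glucocorticoid and other inducers switch on Cebpb and Cebpd, whose products bind the Pparg and Cebpa genes, and PPARγ and C/EBPα then hold each other and the genes of the mature fat cell active. Lipoprotein lipase, the product of Lpl, frees fatty acids from circulating triglyceride, ANGPTL4 inhibits it, CD36 takes fatty acids across the membrane, FABP4 carries them in the cytosol and perilipin 2, the product of Plin2, coats the droplets in which they are stored. Fibroblasts of skin and other connective tissue express many of these genes at low levels without becoming fat cells. BMAL1 with its partner CLOCK binds DNA at the E-box.

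In GENCODE M21 (GRCm38) all 10 are protein-coding genes, and counts were of their exons, UTRs included. The transcription factor genes are Pparg (ENSMUSG00000000440) at chr6:115360951-115490399 on the plus strand, Cebpa (ENSMUSG00000034957) at chr7:35119293-35121928 on the plus strand, Cebpb (ENSMUSG00000056501) at chr2:167688915-167690418 on the plus strand and Cebpd (ENSMUSG00000071637) at chr16:15887286-15891031 on the plus strand. The genes of lipid uptake are Lpl (ENSMUSG00000015568) at chr8:68880491-68907448 on the plus strand, Angptl4 (ENSMUSG00000002289) at chr17:33773750-33781830 on the minus strand, Cd36 (ENSMUSG00000002944) at chr5:17781690-17888801 on the minus strand and Fabp4 (ENSMUSG00000062515) at chr3:10204088-10208576 on the minus strand. The other members are Plin2 (ENSMUSG00000028494) at chr4:86648386-86670060 on the minus strand and Adipoq (ENSMUSG00000022878) at chr16:23146536-23158028 on the plus strand. Cebpd and Adipoq, which share chromosome 16, are the only members on the same chromosome.

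Total counts were 23923030 to 31736083 per library, at which 3 counts, the detection floor used here, equalled 0.0945 or more counts per 1e6 counts (CPM). This floor covers counting error only. The targeted gene, annotated as Arntl, was at 29.8, 31.6 and 33.2 CPM in WT control libraries, at 37.3, 35.8 and 35.2 CPM in WT senescent ones, at 15.2, 11.8 and 12.5 CPM in KO control ones and at 27.0, 25.3 and 27.4 CPM in KO senescent ones. The KO libraries were all below the WT libraries of the same state, but no source used here says which exons the allele lacks, so these counts do not check the deleted part. Fibroblast markers (10 of 10 tested, among them Col1a1, Vim and Pdgfra) summed to 58597 to 62705 CPM in WT control and 45964 to 48243 CPM in WT senescent cells. In KO they summed to 59124 to 71931 CPM in control and 38667 to 46388 CPM in senescent cells. The 8 preadipocyte and adventitial fibroblast markers summed to 399 to 484 CPM in WT control and 610 to 633 CPM in WT senescent cells. In KO these were 488 to 521 and 678 to 752 CPM. Of the 7 tested, some rose and others fell with senescence in each genotype. Of 10 adipocyte markers only 3, which include Adipoq, could be tested, and the list summed to 7.32 to 8.96 CPM in WT control, 11.0 to 11.7 CPM in WT senescent, 6.32 to 8.35 CPM in KO control and 10.6 to 12.4 CPM in KO senescent cells, most of it from the lipase gene Lipe. Lep had no count in either senescent group, Pck1 had none in either control group and Cidec had none in WT control cells. Macrophage markers summed to 10.5 to 19.3 CPM and endothelial markers to 2.35 to 8.94 CPM over all libraries. Chondrocyte markers, led by Col2a1, summed to 7192 to 8879 CPM in WT control, 2037 to 2369 CPM in WT senescent, 4789 to 6493 CPM in KO control and 663 to 775 CPM in KO senescent cells. Since these are bulk samples, fewer cells of a type and less RNA per cell cannot be told apart.

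RefSeq gave promoter windows (250 bases before to 50 after a start, GRCm38.p6) for 6 of the 10 genes, 8 windows in all, with 3 for Pparg and 1 each for Cebpa, Cebpb, Cd36, Plin2 and Adipoq. The windows were searched on both strands for the E-box CACGTG, the C/EBP motif TTGCNNAA, the AP-1 motif TGACTCA or TGAGTCA and the PPAR-RXR repeat AGGNCANAGGNCA. The 2 windows with a match are shown because Pparg and Plin2, with Lpl and Angptl4, differed between genotypes in both states. Capitals mark the matches, and positions count from 1 at the 5′ end.
Pparg, start 3, GRCm38 chr6:115421816-115422115, plus strand: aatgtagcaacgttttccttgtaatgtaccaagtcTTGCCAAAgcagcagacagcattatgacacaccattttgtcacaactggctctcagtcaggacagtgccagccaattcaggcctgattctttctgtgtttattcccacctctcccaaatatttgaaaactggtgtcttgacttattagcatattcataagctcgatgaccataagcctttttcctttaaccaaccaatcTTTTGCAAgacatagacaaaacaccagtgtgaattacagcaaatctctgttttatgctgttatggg
Plin2, GRCm38 chr4:86670010-86670309, minus strand: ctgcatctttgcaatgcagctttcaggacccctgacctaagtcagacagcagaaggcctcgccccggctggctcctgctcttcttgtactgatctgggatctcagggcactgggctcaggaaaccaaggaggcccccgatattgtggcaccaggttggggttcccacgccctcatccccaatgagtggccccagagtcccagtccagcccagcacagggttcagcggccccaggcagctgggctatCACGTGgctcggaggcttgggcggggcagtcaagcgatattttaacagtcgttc
The Pparg window shown, which lies inside the gene body downstream of the other starts, held the C/EBP motif at bases 36 to 43 and, on the other strand, at bases 235 to 242. The C/EBP motif was present in 1 of the 8 windows and in 10.8% of all 32851 promoter windows. The Plin2 window held the E-box at bases 247 to 252, across the start itself, as did 7.15% of all windows for any position. No member window held the AP-1 motif (5.20% of all windows) or the PPAR-RXR repeat (0.381% of all windows). A match describes the letters only, and no binding was measured here.

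The members spanned a wide range of levels. Exon length was that of all annotated exons of a gene merged, 1504 bases for Cebpb and 3746 for Cebpd. It was 2636 bases for Cebpa, 10478 for Lpl and 4489 for Fabp4, which is the whole span of the Fabp4 gene. The order per kb depends on these lengths. In CPM, without this division, Cebpd was above Cebpb in every library (means of 90.3 and 45.9 CPM in WT control cells). Per kb of exon, Cebpb had the highest mean in WT control (30.5 ± 5.93 CPM per kb, SD, n = 3), WT senescent (36.5 ± 1.63) and KO control cells (39.9 ± 2.69), and Plin2 had the highest in KO senescent cells (31.6 ± 3.20). In KO senescent cells the Plin2 libraries overlapped those of Cebpb, which was next at 28.4 ± 3.51 CPM per kb. Cebpb and Cebpd were neighbours with overlapping libraries in both WT groups and with separate ones in both KO groups. Pparg ranked at place 4 in both WT groups and at place 5 in both KO groups. Cd36, Lpl and Adipoq held the last 3 places in every group, between 0.0207 and 0.981 CPM per kb. Lpl stood apart from the gene ranked below it in every group other than WT senescent, and in WT control it overlapped Cd36 above it. Cebpa and Fabp4 lay between, at 1.70 to 4.19 CPM per kb, and overlapped as neighbours in every group other than KO control. In CPM, Fabp4 had a higher mean than Cebpa in every group (8.76 and 5.55 CPM in WT control cells), so their order depends on the length used.

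**Figure D1:**
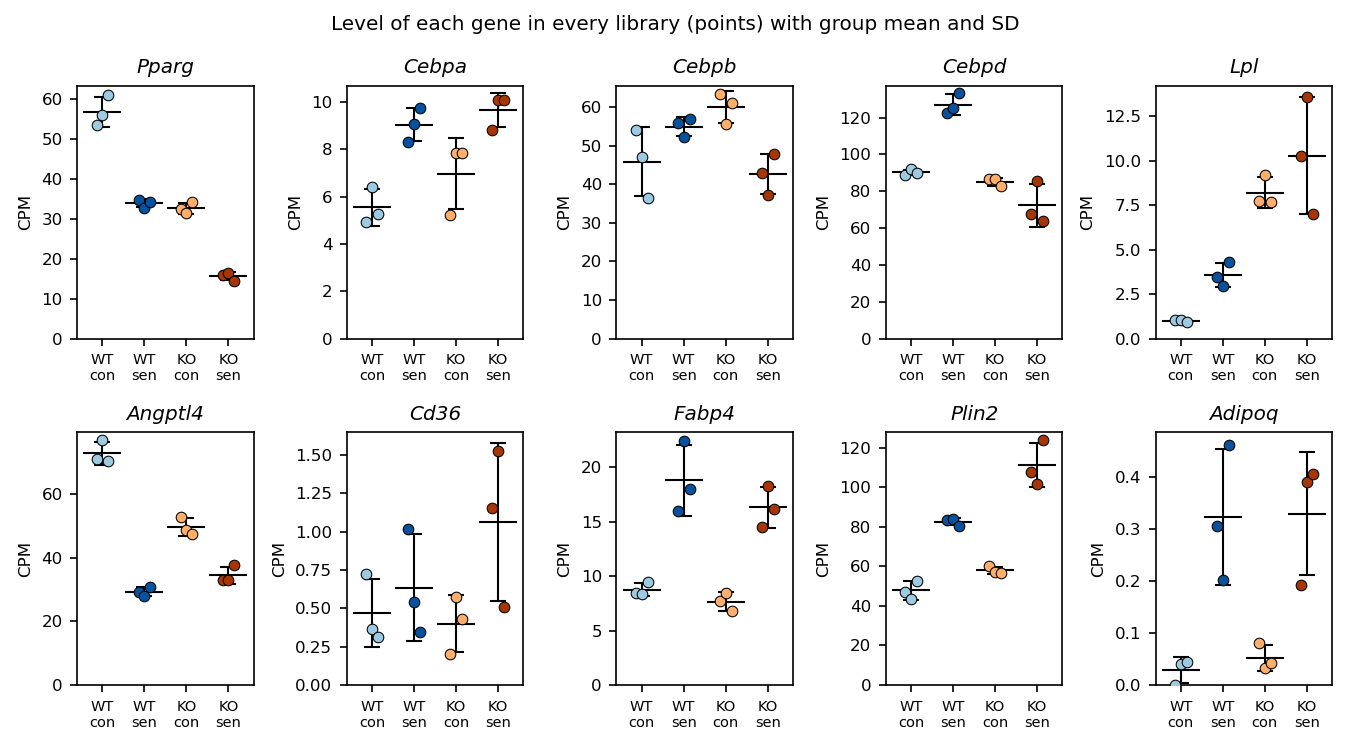
Level of the 10 genes in CPM (on scaled totals, linear axes from 0) in the 12 libraries, by group (con, control; sen, senescent); each point is 1 library, and bars give the mean and SD of 3. Pparg falls from 53.5 to 60.9 CPM in WT control to 14.5 to 16.3 CPM in KO senescent libraries, and Lpl in WT control libraries (0.948 to 1.04 CPM) is below all others.

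A gene is said here to have passed where its adjusted p was under 0.05, and to be called where its log2 fold change was also over 1 in size (edgeR's quasi-likelihood test, Benjamini-Hochberg over all 17416 genes). Adipoq is left out of the counts and medians over members. In WT cells senescence changed 7 of the other 9 genes by adjusted p, 5 higher and 2 lower, beside 29.2% and 27% of all genes tested. Of these, 2 were called higher (Lpl and Fabp4) and 1 lower (Angptl4), beside 11.6% and 5.9% of all genes. In KO cells 4 passed higher and 4 lower, beside 28.5% and 28.6% of all genes, with 2 called higher (Fabp4 and Cd36) and 1 called lower (Pparg), beside 11.2% and 7.58%. The median log2 fold change of the 9 genes was 0.49 in WT and 0.32 in KO, and that of all genes tested was 0.02 in WT and -0.00275 in KO. The response itself differed by genotype, in the interaction (the log2 fold change of KO cells minus that of WT cells), for 1 gene upward (Angptl4) and 4 downward (Pparg, Cebpb, Cebpd and Lpl), beside 9.24% and 11.7% of all genes. Of these only Lpl was called, as 1 gene lower beside 2.51%, and 0 were called higher, beside 1.15% (0 also at an unadjusted p under 0.05 and 0 by DESeq2).

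**Figure D2:**
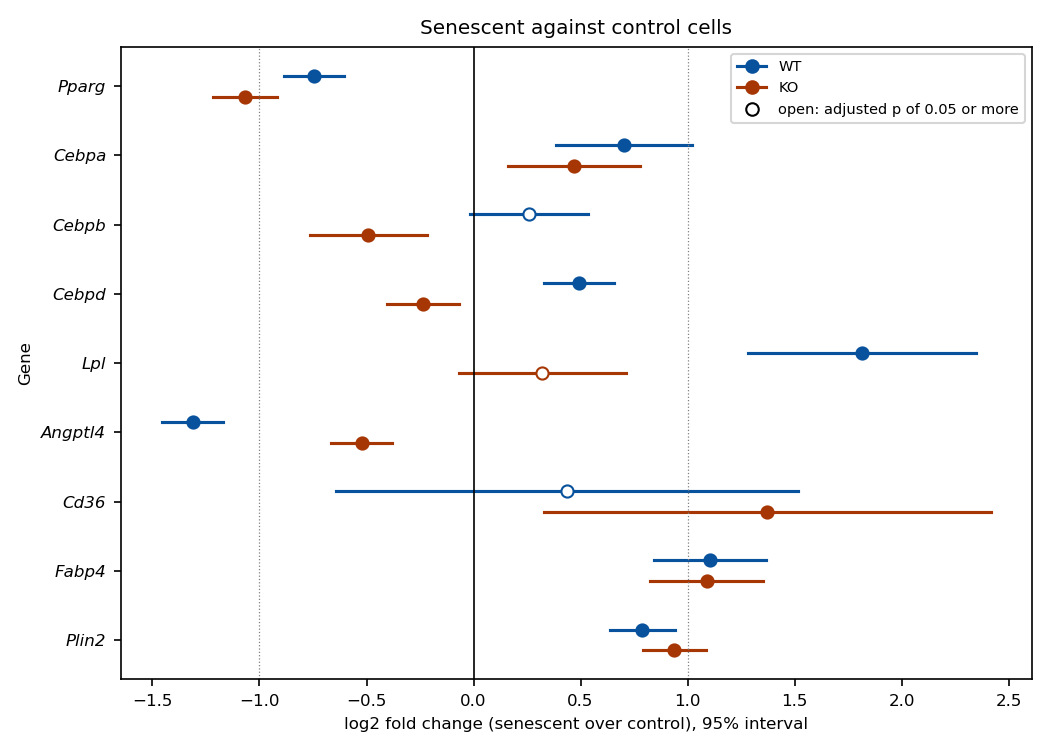
log2 fold change of senescent over control cells with its 95% interval, in WT and KO cells (3 libraries a group); open points had an adjusted p of 0.05 or more and dotted lines mark a log2 fold change of 1 in size. The intervals of Pparg, Cebpb, Cebpd, Lpl and Angptl4 do not overlap between genotypes, and those of Fabp4 lie on each other. Adipoq, which had 0 to 2 counts in each control library, is not shown.

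Pparg, the receptor that directs adipogenesis, was lower in senescent cells and lower in KO cells. It was at 53.5, 56.0 and 60.9 CPM in WT control libraries, at 34.7, 32.8 and 34.1 CPM in WT senescent ones, at 32.3, 31.5 and 34.2 CPM in KO control ones and at 16.0, 16.3 and 14.5 CPM in KO senescent ones. WT control libraries were the highest, KO senescent libraries the lowest, and WT senescent and KO control libraries overlapped. Pparg fell 1.68-fold with senescence in WT (log2 fold change -0.75, SE 0.07, adjusted p = 5.59e-09) and 2.10-fold in KO (-1.07, SE 0.07, adjusted p = 5.8e-11). KO cells were 1.74-fold lower than WT in the control state (-0.80, SE 0.07, adjusted p = 4.35e-08) and 2.17-fold lower in the senescent state (-1.12, SE 0.07, adjusted p = 9.2e-10). Among the comparisons of genotypes, Pparg was the 1 member called lower in senescent cells, beside 2.19% of all genes. The fall was larger in KO by a log2 difference of 0.32 (interaction -0.32, SE 0.10, adjusted p = 0.0245), but the adjusted p of this difference was 0.0537 to 0.0737 with any 1 of these libraries left out, namely replicates 1 and 3 of WT senescent cells, replicate 1 of WT control cells, and replicate 3 of each KO group. Chondrocyte markers fell with senescence in both genotypes (6 of 7 in each, beside 27% and 28.6% of all genes in WT and KO) and were lower in KO than WT senescent cells (7 of 7, beside 11.8%), as Pparg was, and their part in its values was not tested. The counts sum all Pparg starts, so the windows shown above cannot be told apart by level.

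The C/EBP genes did not move together. Cebpa, which with Pparg maintains the fat cell program, was at 4.94, 6.43 and 5.28 CPM in WT control libraries, at 8.33, 9.08 and 9.75 CPM in WT senescent ones, at 5.24, 7.84 and 7.85 CPM in KO control ones and at 8.83, 10.1 and 10.1 CPM in KO senescent ones. In each genotype all senescent libraries were above all control libraries. Cebpa rose 1.63-fold in WT (log2 fold change 0.70, SE 0.15, adjusted p = 0.000487) and 1.39-fold in KO (0.47, SE 0.15, adjusted p = 0.00981), the opposite direction to Pparg in both. The rise in KO rested on 1 library, since it was 0.30 with an adjusted p of 0.0791 without KO control replicate 1. KO and WT libraries overlapped in both states, with log2 differences of 0.33 (95% interval 0.01 to 0.65, adjusted p = 0.18) in control cells and 0.10 (-0.20 to 0.40, adjusted p = 0.678) in senescent cells. Without KO control replicate 1 the difference in control cells was 0.50 (adjusted p = 0.0232).

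Cebpd, an early factor that glucocorticoids induce, was at 89.0, 91.8 and 90.1 CPM in WT control libraries, at 122, 125 and 133 CPM in WT senescent ones, at 86.4, 86.5 and 82.6 CPM in KO control ones and at 67.9, 85.5 and 63.6 CPM in KO senescent ones. The WT senescent libraries were the highest of all, and KO senescent replicate 2 lay among the KO control libraries. Cebpd rose 1.41-fold with senescence in WT (log2 fold change 0.49, SE 0.08, adjusted p = 3.32e-05). In KO it fell 1.18-fold (-0.24, SE 0.08, adjusted p = 0.0169), a change of -0.38 without KO senescent replicate 2 (adjusted p = 2.13e-05), -0.18 without replicate 1 (adjusted p = 0.0969) and -0.15 without replicate 3 (adjusted p = 0.0846). The difference between the responses was -0.73 (SE 0.11, adjusted p = 0.000235), and senescent KO cells were 1.76-fold below senescent WT cells (-0.81, SE 0.08, adjusted p = 9.24e-07). In control cells the log2 difference was -0.08 (95% interval -0.25 to 0.08, adjusted p = 0.559). Cebpd shares 562 bases, 15.0% of its exons, with Spidr on the other strand. Spidr was at 24.6 to 46.6 CPM and fell by 0.66 with senescence in KO (adjusted p = 3.58e-07) with an interaction of -0.69 (adjusted p = 0.000233). Without a stated use of strand, reads from these shared bases cannot be told apart.

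Cebpb, the other early factor, was at 54.1, 47.1 and 36.4 CPM in WT control libraries, at 55.8, 52.2 and 56.9 CPM in WT senescent ones, at 63.5, 55.6 and 61.1 CPM in KO control ones and at 43.0, 37.2 and 47.8 CPM in KO senescent ones. WT control and WT senescent libraries overlapped, while all KO senescent libraries were below all KO control libraries. Cebpb fell 1.41-fold with senescence in KO (log2 fold change -0.49, SE 0.13, adjusted p = 0.00519). In WT the log2 fold change was 0.26 (95% interval -0.02 to 0.53, adjusted p = 0.102), and it was 0.39 without WT control replicate 1 (adjusted p = 0.00842). The difference between the responses was -0.75 (SE 0.18, adjusted p = 0.0112) and passed in all 17 alternatives tried. The KO and WT libraries did not overlap in either state, but the differences of 0.39 in control cells (adjusted p = 0.069) and -0.36 in senescent cells (adjusted p = 0.0559) did not pass. They passed by DESeq2's Wald test (adjusted p = 0.0126 and 0.0201) and without WT control replicate 1 (adjusted p = 0.0083 and 0.0141). The control difference also passed without KO senescent replicate 2 (adjusted p = 0.0382), and the senescent one without WT control replicate 3 (adjusted p = 0.00272) or KO senescent replicate 3 (adjusted p = 0.0374). Cebpb shares 312 bases, 20.7% of its exons, with Tmem189 on the other strand, which was at 28.9 to 40.2 CPM. Cebpa shares 51 bases with Gm45091, which was at 0.0386 to 0.641 CPM.

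Per kb of exon, the 3 C/EBP genes summed to 50.3 to 61.6 CPM per kb in WT control, 71.6 to 77.2 in WT senescent, 63.0 to 67.3 in KO control and 50.1 to 52.6 in KO senescent libraries. The sum was thus higher in senescent than control libraries in WT and lower in KO, with no overlap in either genotype. Cebpb made up 48.2 to 62.7% of the sum over all libraries and Cebpd 32.3 to 47.8%. The share of Cebpa was 2.95 to 4.81% in WT control, WT senescent and KO control libraries and 6.69 to 7.45% in KO senescent libraries. These sums and shares are descriptions, with no test. They depend on the merged exon lengths, and in CPM Cebpd exceeded Cebpb in every library.

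Lpl, the lipase that frees fatty acids for uptake, showed the widest difference between genotypes of the members other than Adipoq. It was at 1.04, 1.02 and 0.948 CPM in WT control libraries, at 3.47, 2.93 and 4.28 CPM in WT senescent ones, at 7.76, 9.19 and 7.68 CPM in KO control ones and at 10.3, 13.6 and 7.02 CPM in KO senescent ones. All KO libraries were above all WT libraries, and only in WT were control and senescent libraries apart. Lpl rose 3.52-fold with senescence in WT (log2 fold change 1.81, SE 0.25, adjusted p = 4.03e-06). In KO the log2 fold change was 0.32 (95% interval -0.07 to 0.71, adjusted p = 0.15), and it was 0.53 without KO senescent replicate 3 (adjusted p = 0.01). The difference between the responses was -1.49 (SE 0.32, adjusted p = 0.0024). KO cells held 8.15-fold more Lpl than WT cells in the control state (3.03, SE 0.24, adjusted p = 2.86e-08) and 2.89-fold more in the senescent state (1.53, SE 0.20, adjusted p = 1.09e-05). Lpl was the 1 member called higher in KO in each state, beside 1.36% of all genes in control and 1.29% in senescent cells. In control cells 0 members were called lower, beside 1.18% (0 also at an unadjusted p under 0.05 and 0 by DESeq2).

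Angptl4, whose product inhibits lipoprotein lipase and which PPARs and glucocorticoids induce, moved against Lpl in WT. It was at 71.0, 76.8 and 70.2 CPM in WT control libraries, at 29.3, 27.8 and 30.8 CPM in WT senescent ones, at 52.7, 48.7 and 47.4 CPM in KO control ones and at 32.9, 33.0 and 37.6 CPM in KO senescent ones. The 4 groups did not overlap, and the order of KO and WT was reversed between the states. Angptl4 fell 2.48-fold with senescence in WT (log2 fold change -1.31, SE 0.07, adjusted p = 9.21e-13) and 1.44-fold in KO (-0.52, SE 0.07, adjusted p = 1.23e-06). The fall was smaller in KO by 0.79 (SE 0.10, adjusted p = 1.69e-05). KO was 1.47-fold below WT in control cells (-0.55, SE 0.07, adjusted p = 6.2e-06) and 1.18-fold above it in senescent cells (0.24, SE 0.07, adjusted p = 0.016). The senescent difference had an adjusted p of 0.0933 without WT senescent replicate 2 and 0.113 without KO senescent replicate 3.

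The level of Lpl relative to that of Angptl4, both per kb of exon in the same library, was 0.00447 to 0.00497 in WT control, 0.0356 to 0.0469 in WT senescent, 0.0497 to 0.0637 in KO control and 0.0631 to 0.139 in KO senescent libraries. Angptl4 thus exceeded Lpl in every library, and WT control libraries had the lowest ratios. The KO control and KO senescent libraries overlapped. The ratio is a description, with no test, and says nothing of the proteins. Its size depends on the merged exon lengths, 10478 bases for Lpl and 3541 for Angptl4.

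**Figure D3:**
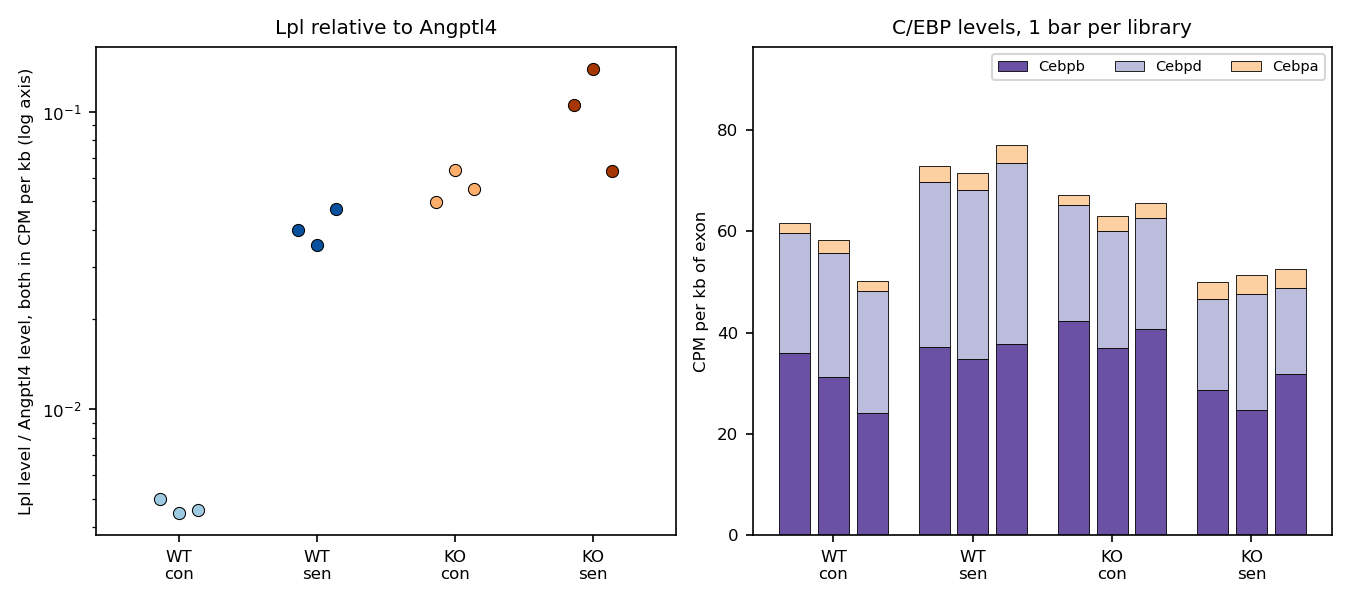
Left, ratio of the Lpl to the Angptl4 level (CPM per kb of exon, log axis) in each of the 12 libraries; right, levels of Cebpb, Cebpd and Cebpa in CPM per kb, stacked, 1 bar per library (con, control; sen, senescent). The ratio lies between 0.00447 and 0.00497 in WT control libraries and at 0.0356 or more in all others, and the stacked bars are highest in WT senescent libraries (71.6 to 77.2 CPM per kb).

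Fabp4, the cytosolic fatty acid carrier that PPARγ induces in fat cells, rose with senescence in both genotypes, in which Pparg fell. It was at 8.48, 8.38 and 9.43 CPM in WT control libraries, at 16.0, 22.4 and 18.0 CPM in WT senescent ones, at 7.68, 8.48 and 6.78 CPM in KO control ones and at 14.5, 18.2 and 16.2 CPM in KO senescent ones. All senescent libraries were above all control libraries, and the genotypes overlapped in each state. The rise was 2.15-fold in WT (log2 fold change 1.10, SE 0.13, adjusted p = 1.77e-07) and 2.13-fold in KO (1.09, SE 0.13, adjusted p = 2.52e-07). The responses differed by -0.02 (95% interval -0.39 to 0.36, adjusted p = 0.968). KO differed from WT by -0.19 (-0.47 to 0.09, adjusted p = 0.401) in control and by -0.21 (-0.45 to 0.04, adjusted p = 0.23) in senescent cells. The log2 fold change was 0.96 in WT without WT senescent replicate 2 and 0.997 in KO without KO senescent replicate 2, which are not over 1, so that Fabp4 was then not called although it passed. Fabp4 is also expressed by endothelial cells and macrophages. The 7 endothelial markers summed to 2.35 to 7.07 CPM in WT control, 6.44 to 7.70 CPM in WT senescent, 5.06 to 5.72 CPM in KO control and 5.77 to 8.94 CPM in KO senescent libraries, and the 10 macrophage markers to 12.0 to 18.3, 16.2 to 19.3, 10.5 to 14.2 and 13.2 to 18.2 CPM. Their part in the Fabp4 values was not tested.

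Cd36, the membrane transporter of fatty acids, was near the lower limit of measurement. It was at 0.723, 0.366 and 0.316 CPM in WT control libraries, at 1.02, 0.538 and 0.347 CPM in WT senescent ones, at 0.200, 0.572 and 0.429 CPM in KO control ones and at 1.16, 1.52 and 0.506 CPM in KO senescent ones. The groups overlapped in both genotypes, and the spread within each group was wide. Cd36 rose 2.59-fold with senescence in KO (log2 fold change 1.37, SE 0.50, adjusted p = 0.0238), from 32 to 88 counts over 3 libraries, a ratio of 2.56 on scaled totals (95% exact interval for counting error 1.69 to 3.97). This call was lost without KO control replicate 1 (1.06, adjusted p = 0.0948), KO control replicate 3 (1.41, adjusted p = 0.0513), KO senescent replicate 1 (1.32, adjusted p = 0.0586) or KO senescent replicate 2 (1.01, adjusted p = 0.138). In WT the log2 fold change was 0.44 (95% interval -0.64 to 1.52, adjusted p = 0.499), and the difference between the responses was 0.94 (-0.58 to 2.45, adjusted p = 0.4). KO differed from WT by -0.22 in control cells (-1.37 to 0.94, adjusted p = 0.858) and by 0.72 in senescent cells (-0.25 to 1.69, adjusted p = 0.291). Each of these intervals includes 0.

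Plin2, the coat protein of lipid droplets in most cell types, was higher in senescent cells and higher in KO cells, the reverse of Pparg. It was at 47.2, 43.5 and 52.7 CPM in WT control libraries, at 83.3, 84.0 and 80.4 CPM in WT senescent ones, at 60.1, 57.2 and 56.8 CPM in KO control ones and at 108, 102 and 124 CPM in KO senescent ones. The 4 groups did not overlap. Plin2 rose 1.73-fold with senescence in WT (log2 fold change 0.79, SE 0.07, adjusted p = 6.97e-09) and 1.92-fold in KO (0.94, SE 0.07, adjusted p = 3.27e-10). The responses differed by 0.15 (95% interval -0.06 to 0.36, adjusted p = 0.326). KO exceeded WT 1.21-fold in control cells (0.28, SE 0.07, adjusted p = 0.0131) and 1.35-fold in senescent cells (0.43, SE 0.07, adjusted p = 0.000106). The control difference had an adjusted p of 0.0599 without WT control replicate 1 and 0.0662 without WT control replicate 2. Plin2 is the gene whose window above holds the E-box across the start.

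Adipoq, which encodes the fat cell hormone adiponectin, had 0, 1 and 1 counts in WT control, 9, 6 and 12 counts in WT senescent, 2, 1 and 1 counts in KO control and 5, 11 and 12 counts in KO senescent libraries. No control library exceeded the floor of 3 counts, and every senescent library did. Because the filter kept Adipoq through the senescent libraries, the difference is a description with no test. The ratio of summed counts on scaled totals was 11.4 in WT (95% exact interval for counting error 2.86 to 98.6) and 6.52 in KO (2.28 to 25.6). Its highest level was 0.463 CPM. The log2 difference between KO and WT was 0.05 in senescent cells (95% interval -1.07 to 1.17, adjusted p = 0.959), and no fold is given between control groups, which were both at or under the floor. Of the other adipocyte markers, only Lipe and Plin1 could be tested. Lipe passed higher in both genotypes (0.41 in each). Plin1 was at 0.158 CPM or less on average in control cells, 0.298 CPM in WT senescent and 0.848 CPM in KO senescent cells. Plin1 did not pass the filter in control libraries alone, and it held 1 to 13 counts in WT senescent libraries. The markers too low to test are given by counts summed over the 3 libraries of a group, control then senescent. Slc2a4 had 3 and 16 in WT and 4 and 34 in KO. In the same order, Cfd had 8 and 12, and 3 and 28. Cidec had 0 and 6, and 1 and 6. Pck1 had 0 and 2 in each genotype. Thrsp had 15 and 13, and 16 and 21. Retn had 1 and 2, and 1 and 1. Lep had 1 and 0, and 4 and 0. These differences were not tested. The part of a few fat cells in these values was not tested.

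In the comparisons of genotypes, 2 members passed higher (Lpl and Plin2) and 2 lower (Pparg and Angptl4) in control cells, beside 8.07% and 4.96% of all genes. In senescent cells 3 passed higher (Lpl, Plin2 and Angptl4) and 2 lower (Pparg and Cebpd), beside 11.9% and 11.8%. Pparg, Lpl and Plin2 kept their direction in both states, and Angptl4 changed it. The comparisons of KO with WT share libraries with those of senescent with control cells, so the values are given side by side and are not independent of each other.

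**Figure D4:**
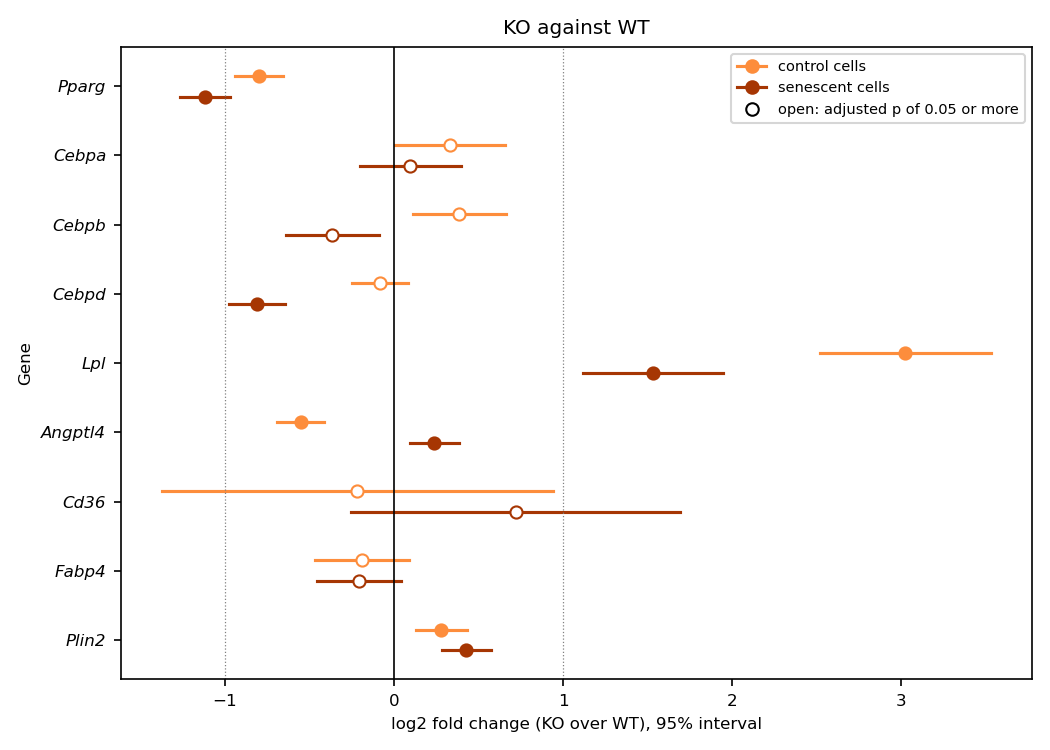
log2 fold change of KO over WT with its 95% interval, in control and in senescent cells (3 libraries a group); open points had an adjusted p of 0.05 or more and dotted lines mark a log2 fold change of 1 in size. Lpl lies at 3.03 in control and 1.53 in senescent cells, Pparg at -0.80 and -1.12, and Angptl4 has opposite signs. Adipoq is not shown.

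Other genes of the pathway were described from lists of known function, chosen like the members with earlier results of these data known. The counts can be set beside the shares of all genes that passed, which were 29.2% higher and 27% lower in WT and 28.5% higher and 28.6% lower in KO. Left out of the counts are Ebf2, Gata3, Plin1, Plin5 and Cidea, which like Adipoq did not pass the filter in control libraries alone. Of the 3 tested C/EBP relatives, 1 passed higher and 2 lower in WT and 2 higher in KO. The called one was Ddit3, a stress-induced inhibitor of other C/EBP proteins, which rose in WT from 20.6 ± 0.36 to 61.5 ± 1.06 CPM (SD, n = 3) (log2 fold change 1.58) and in KO from 23.7 ± 1.03 to 73.4 ± 2.98 CPM (1.63). Of 13 PPAR, RXR and coregulator genes, 7 passed higher and 3 lower in WT, while in KO 5 passed lower and 0 higher (1 higher at an unadjusted p under 0.05, 0 by DESeq2). Ppargc1a, the coactivator PGC-1α, rose in WT from 2.06 ± 0.60 to 4.68 ± 0.85 CPM (1.18, adjusted p = 0.000184). It was at 1.63 ± 0.33 and 1.70 ± 0.13 CPM in KO, and its interaction was -1.12 (adjusted p = 0.0241).

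Of 13 factors that promote adipogenesis, 6 passed higher and 5 lower in WT, and 5 higher and 6 lower in KO. Klf15, a glucocorticoid-induced factor that acts on Pparg, rose in WT from 3.17 ± 0.25 to 11.6 ± 2.25 CPM (log2 fold change 1.87) and in KO from 2.39 ± 0.20 to 4.90 ± 0.62 CPM (1.03), a difference of -0.84 (adjusted p = 0.0174). Zfp423, a factor of preadipocytes, rose in WT (1.22, adjusted p = 0.00057) and averaged 2.07 ± 1.01 CPM in control and 2.89 ± 0.30 CPM in senescent KO cells. Klf4, which acts on Cebpb, was called higher in KO (1.22) and passed in WT (0.77), with an interaction of 0.44 (adjusted p = 0.0112). Of 9 factors that restrain adipogenesis, 3 passed higher and 2 lower in WT, and 2 higher and 4 lower in KO. Klf2, which represses Pparg, fell in WT from 27.5 ± 3.62 to 13.7 ± 0.25 CPM (-1.01) and in KO from 30.1 ± 3.73 to 13.5 ± 1.20 CPM (-1.15).

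Of 13 tested PPAR target genes outside the members, 4 passed higher and 4 lower in WT, and 4 higher and 5 lower in KO, with a median log2 fold change of 0.09 for WT and 0.06 for KO. Pdk4, a brake on glucose oxidation, rose in WT from 8.29 ± 0.84 to 30.4 ± 4.14 CPM (1.87) and in KO from 11.5 ± 0.90 to 30.9 ± 4.12 CPM (1.42). Fabp3, another fatty acid carrier, rose by 1.47 on the log2 scale in WT and by 1.48 in KO. Of 11 genes of lipid droplets and lipolysis, 8 passed higher and 1 lower in WT, and 7 higher and 2 lower in KO. Pnpla2, the lipase that starts triglyceride breakdown, rose in WT from 6.65 ± 0.54 to 15.3 ± 2.12 CPM (1.21) and in KO from 7.42 ± 0.47 to 20.7 ± 2.01 CPM (1.48). G0s2, which inhibits that lipase, rose in WT (0.59, adjusted p = 0.0247) and fell in KO (-0.57, adjusted p = 0.0343), with an interaction of -1.17 (adjusted p = 0.0163).

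Of 14 tested genes of lipid uptake and of the control of lipoprotein lipase, 4 passed higher and 8 lower in WT, and 2 higher and 9 lower in KO, with a median log2 fold change of -0.24 and -0.38. Scarb1, the receptor for high-density lipoprotein, fell in WT from 61.2 ± 1.42 to 28.1 ± 1.12 CPM (-1.13) and in KO from 59.7 ± 3.75 to 29.0 ± 2.25 CPM (-1.04). Lsr, a lipoprotein receptor, rose in WT (1.51, adjusted p = 0.000591) and averaged 0.947 ± 0.17 CPM in control and 1.38 ± 0.17 CPM in senescent KO cells. Slc27a3, of the fatty acid transport protein family, fell in WT (-0.84) and more so in KO (-1.91), with an interaction of -1.07 (adjusted p = 4.36e-05). Fabp5, the epidermal fatty acid carrier, fell in KO from 23.7 ± 3.01 to 13.0 ± 3.28 CPM (-0.86, adjusted p = 0.000119), was at 13.8 ± 1.73 and 17.1 ± 0.72 CPM in WT, and had an interaction of -1.18 (adjusted p = 0.00116). Gpihbp1, the capillary anchor of lipoprotein lipase, was too low to be tested.

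Of 11 tested genes of fatty acid and triglyceride synthesis, 2 passed higher and 4 lower in WT, and 3 higher and 6 lower in KO. Lpin1, a phosphatidate phosphatase and coactivator, rose in WT from 16.7 ± 0.66 to 50.3 ± 2.11 CPM (log2 fold change 1.59) and in KO from 22.4 ± 1.54 to 45.7 ± 2.61 CPM (1.03), a difference of -0.56 (adjusted p = 0.000506). Acacb, an acetyl-CoA carboxylase, rose in WT (1.65, adjusted p = 3.99e-06) and KO (0.80, adjusted p = 0.00441). Of 8 glucocorticoid response genes, 3 passed higher and 4 lower in WT, and 4 higher and 3 lower in KO. Fkbp5, a glucocorticoid-induced chaperone partner, fell in WT from 66.5 ± 8.16 to 19.7 ± 0.88 CPM (-1.76) and in KO from 66.1 ± 2.16 to 21.4 ± 1.98 CPM (-1.63). Zbtb16, Tsc22d3 and Dusp1 are glucocorticoid-induced genes. Zbtb16 rose in WT (2.33) and KO (1.28). Tsc22d3 was called in WT (1.33) and averaged 33.3 ± 4.56 CPM in control and 57.2 ± 9.58 CPM in senescent KO cells. Dusp1 was called in KO (1.73) and averaged 71.6 ± 6.07 CPM in control and 129 ± 2.18 CPM in senescent WT cells. Tsc22d3 and Dusp1, like Zfp423 and Lsr above, were not called in the interaction. A call in 1 genotype does not by itself show that the responses differ, nor does the lack of one show that they are equal. Counted genes called with senescence but outside the naming rule were Ppara in WT and Klf9 in KO, named here after their values were seen. Calls of pathway genes between KO and WT are not given here.

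**Figure D5:**
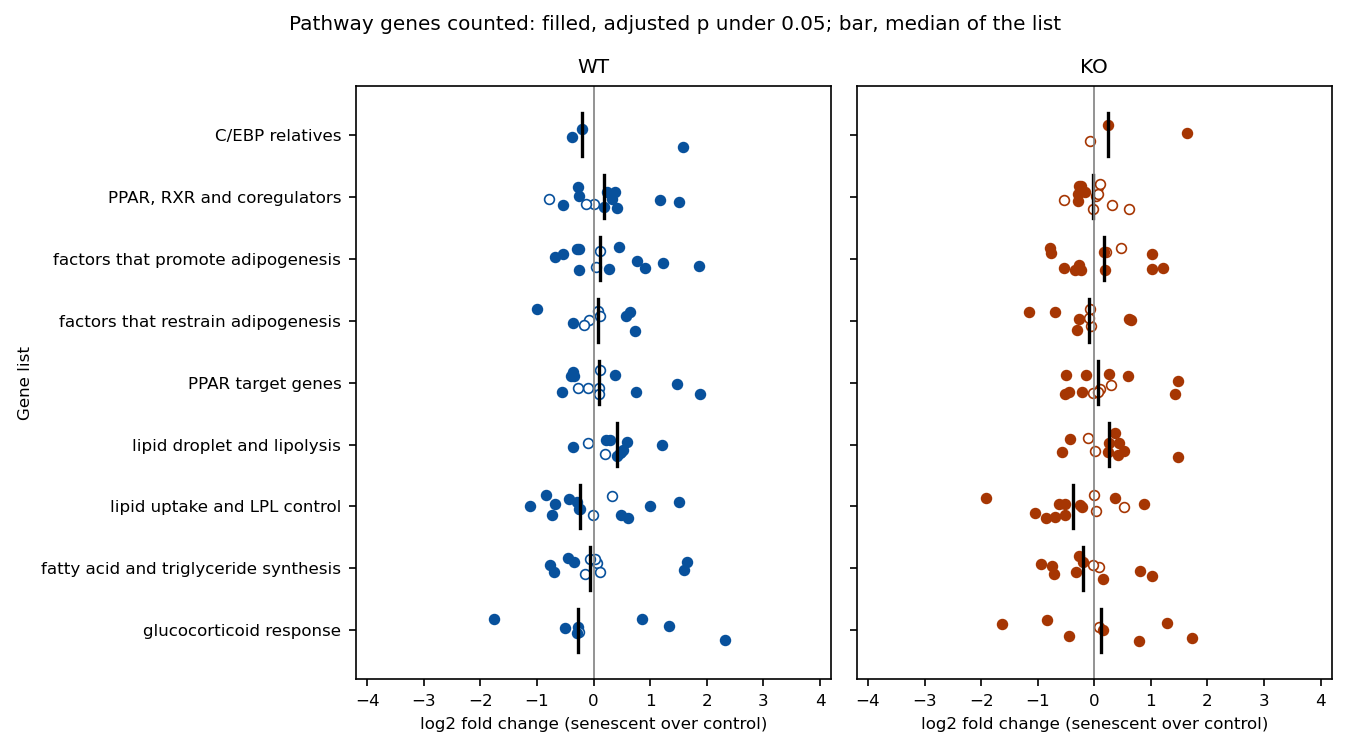
log2 fold change of senescent over control cells for each counted gene of 9 pathway lists, in WT (left) and KO (right); filled points had an adjusted p under 0.05, bars give the median of the list, and vertical scatter has no meaning. Lipid droplet and lipolysis genes have medians of 0.41 in WT and 0.25 in KO, and lipid uptake genes -0.24 and -0.38.

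The genes most like a member over the 12 libraries, by Pearson's r of log2 CPM among genes that averaged 5 CPM or more, were Ccdc80 for Pparg (r = 0.988), Pdzd7 for Cebpa (0.987), Kctd7 for Cebpb (0.905), Aspg for Cebpd (0.978) and Kalrn for Lpl (0.984). They were also Maoa for Fabp4 (0.983), Jmjd1c for Cd36 (0.903), Blcap for Plin2 (0.990) and Pef1 for Adipoq (0.977). Among the members themselves, r with Pparg was -0.896 for Plin2, -0.840 for Lpl, -0.742 for Cebpa and 0.670 for Angptl4. These values describe 12 libraries that share 4 groups and carry no test.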

How the data were processed

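Gene counts of 12 RNA-seq libraries were analysed. The deposited values are raw counts of reads per gene, with 1 table for each genotype. The authors made them from poly(A)-selected libraries (NEBNext Ultra II) by trimming reads with Trimmomatic 0.36, mapping them with STAR 2.5.2b to GRCm38 and counting unique exonic reads with featureCounts. Use of strand and the annotation release are not given in the sources used here. Reads carried no molecular identifiers, so intervals and floors cover counting error only.

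Symbols, coordinates and exon lengths came from GENCODE M21, in which 49056 of 49315 identifiers were found. Groups were taken from the labels. Tests used edgeR 4.0.16 in R 4.3.3: filterByExpr, TMM scaling (factors 0.926 to 1.07), robust dispersions, 1 mean per group over all 12 libraries and the quasi-likelihood F-test for 5 comparisons, with Benjamini-Hochberg adjustment over 17416 genes. The standard error (SE) was the log2 fold change divided by the square root of F, and intervals are 95%. The test was checked on simulated data. The comparison of groups and both thresholds follow the study's methods, which used DESeq2. The paper's results state another p-value limit, and the interaction was added here.

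Named genes were the 10 members, Arntl, at most 2 called genes per pathway list, direction and senescence comparison or interaction (largest change, mean of at least 1 CPM), and the gene most alike to each member. Listed genes that did not pass filterByExpr in control and in senescent libraries taken alone were left out of counts and medians over lists. The members and lists were chosen with earlier results of these data known. Alternatives were DESeq2 1.42.0 (size factors and Wald test), limma-trend (3.58.1, prior count 2), no filter, adjusted p alone, the compared groups only, unscaled totals, replicate blocks and each library left out. Same-numbered libraries of different groups correlated at -0.125 to 0.108 in their deviations from the group means, so numbers were not taken as pairs. Replicates differed beyond counting noise (chi-square per degree of freedom 3.03 to 17.4), so none was merged. A result of the naming rule is not reported here.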

Additional observations from a re-analysis of the deposited data

Results flagged for a closer look

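Of the 9 genes other than Adipoq, 5 had a senescence response that differed between genotypes by the test of the difference itself (edgeR's quasi-likelihood test, 3 libraries a group). Of these, 1 differed upward and 4 downward, beside 9.24% and 11.7% of all genes. The KO log2 fold change less the WT one was -0.32 for Pparg (SE 0.10, adjusted p = 0.0245), -0.75 for Cebpb (SE 0.18, adjusted p = 0.0112), -0.73 for Cebpd (SE 0.11, adjusted p = 0.000235), -1.49 for Lpl (SE 0.32, adjusted p = 0.0024) and 0.79 for Angptl4 (SE 0.10, adjusted p = 1.69e-05). The difference for Pparg passed in 12 of 17 alternatives, with an adjusted p of up to 0.0737 with 1 library left out. Cebpd and Cebpb had opposite signs in the genotypes, and the WT change of Cebpb did not pass. Groups of 3 libraries were not tested for single outlying libraries.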

How the results depend on the processing

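With Adipoq counted, by adjusted p alone, without the limit on the fold change, 6 members were higher and 2 lower with senescence in WT. They were 5 and 4 in KO, 1 and 4 in the interaction, 2 and 2 in KO against WT control cells and 3 and 2 in senescent cells. The shares of all genes beside these counts were 29.2% and 27%, 28.5% and 28.6%, 9.24% and 11.7%, 8.07% and 4.96%, and 11.9% and 11.8%. The filter kept Adipoq through its senescent libraries, so its part in the counts of 6 and 5 is no test of senescence. Without Adipoq these counts were 5 in WT and 4 in KO. Fabp4 and Cd36 were the 2 members called higher with senescence in KO, beside 11.2% of all genes. Without KO senescent replicate 2 neither was called (0.997 for Fabp4, and 1.01 with adjusted p = 0.138 for Cd36). Of all genes, the 205 called lower in KO control against WT control cells were 87, 89 and 542 without WT control replicates 1, 2 and 3 and 118 and 113 without KO control replicates 2 and 3, and the 200 called higher in the interaction were 346 without WT control replicate 3. The interaction of Fabp4, which did not pass, turned to 0.0149 with DESeq2 size factors, 0.0186 with DESeq2's Wald test and 0.00174 with limma-trend, and ranged from -0.12 to 0.13 with 1 library left out. Other differences that did not pass changed sign with 1 library left out: -0.0800 to 0.89 for Cd36 with senescence in WT, -0.59 to 0.24 for Cd36 between control genotypes and -0.20 to 0.38 for Adipoq between senescent genotypes. Of 887 alternative values for single members, 840 kept their direction and their side of the threshold, 17 lost it, 16 gained it and 14 changed sign. In the compared groups alone, Cebpd in KO did not pass (-0.22, adjusted p = 0.0672), Cebpb differed between senescent genotypes (-0.36, adjusted p = 0.00313), and Adipoq could be tested only between senescent groups. Without a filter on low counts Cebpb also passed with senescence in WT (0.25, adjusted p = 0.00179) and between genotypes in control (0.39, adjusted p = 2.23e-06) and senescent cells (-0.37, adjusted p = 6.14e-06). The cause of these changes was not tested. With a replicate block within each genotype, Cebpb passed in WT (0.27, adjusted p = 0.0304), with a block by shared number it passed between senescent genotypes (-0.36, adjusted p = 0.046), and the blocks changed no other call of a member. Unscaled totals moved the group levels by ratios of 0.939 to 1.07, by more than 1 SD in 10 of 40. Depth limits Adipoq and Cd36, whose libraries held 0 to 43 counts.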
